A study of Mus musculus with 21 samples.

Results

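PTBP1 (polypyrimidine tract binding protein 1) is an RNA-binding protein of the nucleus and cytoplasm, and its contacts with ribosomal RNA (rRNA) were read from iCLIP, a method that crosslinks protein to RNA with ultraviolet light and maps the crosslinked nucleotide. The sites described here are those of the pooled PTBP1 iCLIP list on mouse chromosome 17 between positions 39842000 and 39849000 (GRCm38). This interval holds a copy of rRNA gene sequence and is called the rRNA window below. It held 1779 of the 244659 sites of the pooled list. The rule used position alone and no cDNA count.

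The iCLIP material was 5 libraries of splenic B cells from female C57BL/6 mice, cultured with LPS (lipopolysaccharide, which drives B cells to divide) for 48 h. Their genotype is entered as NA, and no control immunoprecipitation was used here, so no background could be subtracted. Germinal centre B cells were measured by mRNA sequencing, which served here as a second readout of the same locus. Its 4 groups of 4 libraries were LZ cKO, LZ control, DZ cKO and DZ control, from the light zone (LZ) or dark zone (DZ) of spleens taken 7 days after immunisation with NP-KLH in alum. The cKO mice were CD79acre/+Ptbp1fl/fl and the control mice CD79a+/+Ptbp1fl/fl, both C57BL/6, so all carried loxP-flanked Ptbp1 and only cKO mice carried Cre, expressed from the Cd79a gene of B-lineage cells. Cells of 3 to 5 mice of 1 sex were pooled for each mRNA library. Nothing in the labels says whether the iCLIP libraries came from separate mice, so their spread may be technical.

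Ribosomal RNA is transcribed in the nucleolus by RNA polymerase I as a long precursor. The precursor opens with the 5′ external transcribed spacer, followed by 18S rRNA, the RNA of the small ribosomal subunit, an internal spacer and the RNAs of the large subunit. The spacers are cut away and degraded, while 18S rRNA is kept in ribosomes and is among the most abundant RNAs of a cell. PTBP1 is known for binding pyrimidine-rich stretches of messenger RNA precursors and for regulating their splicing. A cDNA count in iCLIP reflects both how often a protein touches an RNA and how much of that RNA there is, and these cannot be told apart in these lists.

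Annotation covered part of the stretch with sites, and all sites lay on 1 strand. RefSeq (GRCm38.p6) lists Rn18s-rs5, an 18S-related sequence, at positions 39846354 to 39848202, a length of 1849 nt. Its biotype there is pseudogene, and its interval is called 18S here. Sites ran from position 39842993, with 2 cDNAs, to position 39848572, with 6 cDNAs. The nearest sites outside the window were 129438 nt before it, with 1 cDNA, and 106886 nt after it, with 2 cDNAs. The edges of the window thus cut through no group of listed sites. This does not cover parts of the rRNA gene that the assembly lacks or holds elsewhere. All sites lay on the plus strand: 0 of 1779 were on the minus strand, against 49.3% of all other sites. RefSeq also lists the long non-coding RNA AY036118 across the 3′ end of the window, from position 39848112, and its promoter entry puts it on the minus strand, where the window had no site.

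The rRNA window took a large part of the listed cDNAs of every library. Shares are of the cDNAs at sites that passed the false discovery rate in a library's list, not of all its cDNAs. The pooled list, described below, gave a lower share. The share of cDNAs on the window was 6.89% in library 1, 13.8% in library 2, 19.8% in library 3, 9.59% in library 4 and 10.9% in library 5. The mean was 12.2% ± 4.91 (SD, n = 5). Exact 95% binomial intervals, which cover counting error only, ran from 6.61% to 7.18% in library 1 and from 19.1% to 20.5% in library 3, so the libraries differed by more than counting error. Library 3 had the highest share and was the smallest, with 6211 sites and 13055 cDNAs, and without it the mean was 10.3%. Library 4, with 45505 sites and 82478 cDNAs, was the largest. The file headers carry the run labels BGIL3 for libraries 1 and 5, BGIL4 for libraries 3 and 4 and BGIL1 for library 2. Within the label BGIL4 the shares were 19.8% and 9.59%, and within BGIL3 they were 6.89% and 10.9%. The share of sites on the window was 3.72% ± 1.4 (SD, n = 5), from 2.45% to 5.96%, so the window held a larger share of cDNAs than of sites in all 5 libraries.

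**Figure D1:**
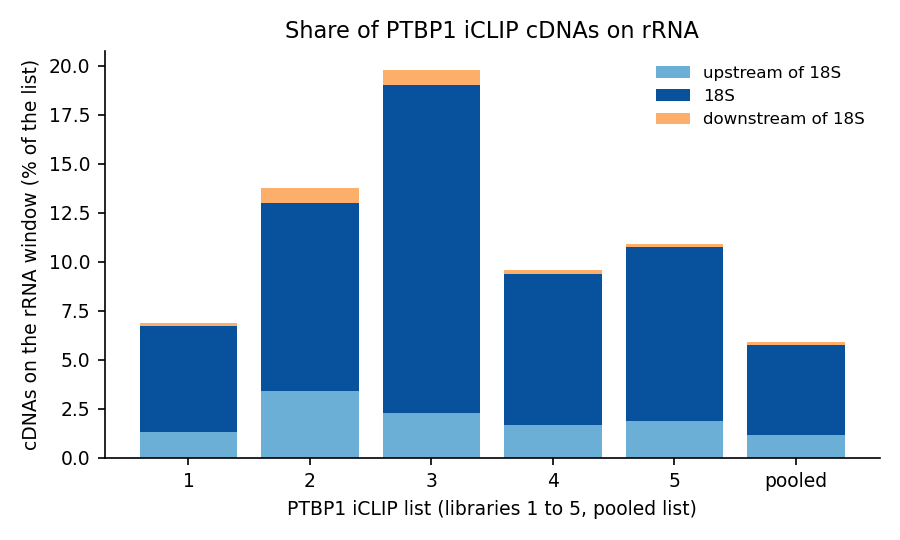
Share of all cDNAs of a list that lay on the rRNA window (y axis, percent), for iCLIP libraries 1 to 5 and the pooled list (x axis), split into the stretch upstream of 18S, 18S and the stretch downstream. Library 3 is highest at 19.8%, the pooled list lowest at 5.89%, and 18S makes up most of each bar.

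The pooled list, called by the authors after the cDNAs of the replicates were added up, gave the window a smaller share than any single library. There it held 25475 of 432167 cDNAs, or 5.89% (exact 95% interval 5.82% to 5.97%). The replicate lists together held 24281 cDNAs on the window, which was 11.1% of their total. Of the window cDNAs of the pooled list, 6.73% stood at positions and libraries for which the replicate list had no site, against 53.9% of the cDNAs of all other sites. The pooled list thus gained many cDNAs elsewhere in the genome and few on the window.

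No other stretch of the same length held as many cDNAs or as many sites. The genome was cut into stretches of 7000 nt, of which 29314 had at least 1 site, and the rRNA window ranked 1 for cDNAs and 1 for sites. The next by cDNAs was on chromosome 7 at Eif4g2, a translation initiation factor gene, with 10791 cDNAs on 87 sites. The share of that stretch was 11.1%, 4.74%, 2.6%, 3.14% and 4.66% in libraries 1 to 5, so it was above the rRNA share in library 1 and below it in the other libraries. The third, on chromosome 11 at the predicted gene Gm36876, held 2416 cDNAs on 295 sites, and the fourth, on chromosome 3 where RefSeq lists no gene, held 2394 cDNAs on 162 sites. By mean cDNAs per site the rRNA window ranked 10 among the 2721 stretches with at least 20 sites, so its total came from many sites as well as from high ones. Other rRNA gave far fewer cDNAs. The 63 rRNA genes that RefSeq lists on nuclear chromosomes, 5S rRNA genes among them, held 1047 cDNAs on 134 sites, and the 2 mitochondrial rRNA genes held 592 cDNAs on 87 sites.

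Sites on rRNA were higher than sites elsewhere. The mean cDNA count per site was 4.49, 6.2, 6.98, 7.1 and 5.61 on the window in libraries 1 to 5, against 1.68, 1.62, 1.79, 1.68 and 1.65 over all other sites. The 2 sets of values did not overlap. The mean was 6.08 ± 1.07 on the window and 1.68 ± 0.0661 elsewhere (SD, n = 5), a log2 ratio of 1.83 ± 0.256 (SD), or 3.56-fold. The window was higher in 5 of 5 libraries, with an exact two-sided sign-flip permutation p of 0.0625 over the n = 5 libraries, which is the smallest p that 5 libraries allow and cannot pass 0.05. Within run labels the log2 ratio was 1.42 and 1.76 for BGIL3 and 1.96 and 2.08 for BGIL4. With medians in place of means the log2 ratio was 0.92 (exact permutation p = 0.125), since the median window site had 1 to 3 cDNAs and the median site elsewhere 1, and library 3 showed no difference. A total of 3 comparisons were tested in this way, and each had the same p before and after Benjamini-Hochberg (BH) adjustment.

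In the pooled list, 740 of the 1779 window sites had at least 5 cDNAs (41.6%), against 3.02% of all other sites and 3.3% of all sites. At least 100 cDNAs were reached by 37 window sites (2.08%) and by 67 other sites (0.0276%), while the percentage over all sites was 0.0425%. The window therefore supplied 35.6% of the 104 sites of this height. Sites with a single cDNA made up 30.8% of the window and 72.9% of the other sites. Among sites of at least 5 cDNAs in a library, the window was still higher in each library, by 0.08 to 0.97 on the log2 scale with a mean of 0.49.

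Most cDNAs were on 18S in the pooled list and in each library, while most sites of the pooled list were upstream of it. In the pooled list 18S held 548 sites and 19695 cDNAs, 77.3% of the window. The stretch upstream of it, from the first site to the base before 18S, is 3361 nt long and lies where the rRNA gene has its 5′ external transcribed spacer, although the RefSeq table lists no feature there. It held 1207 sites and 5085 cDNAs. The stretch downstream of 18S, where the first internal spacer begins, held 24 sites and 695 cDNAs within 370 nt.

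The libraries gave the same order for cDNAs but not for sites. 18S held 78.4%, 69.5%, 84.8%, 80.5% and 81.1% of the window's cDNAs in libraries 1 to 5, a mean of 78.9% ± 5.69 (SD, n = 5), and the upstream stretch held 17.9% ± 4.76. Library 2 had the lowest share on 18S and the highest upstream, at 24.8%. The mean cDNA count per site was 10.4 ± 2.4 on 18S and 2.09 ± 0.396 upstream (SD, n = 5), a log2 ratio of 2.3 ± 0.383 that was positive in 5 of 5 libraries (exact sign-flip permutation p = 0.0625, the smallest possible). Per 100 nt, 18S held 204 ± 105 cDNAs and the upstream stretch 27.5 ± 18.9. The log2 ratio was 3.04 ± 0.5, with the same exact sign-flip permutation p of 0.0625 over n = 5 libraries. Both comparisons of 18S with the upstream stretch were added after the values were seen, so their p-values are a description only. The share of the window's sites was 50.4%, 36.7%, 47.3%, 47.4% and 51.4% on 18S in libraries 1 to 5, and 47.0%, 59.8%, 49.2%, 51.3% and 46.9% upstream. More sites lay on 18S than upstream in libraries 1 and 5, and fewer in libraries 2, 3 and 4. Per position, 12.9%, 22.9%, 9.46%, 28.5% and 22.4% of 18S carried a site in libraries 1 to 5, against 6.61%, 20.5%, 5.42%, 17.0% and 11.2% of the upstream stretch. Sites were thus denser on 18S in each library, and the order turned in the pooled list, with 29.6% of 18S positions and 35.9% of upstream positions. Differences in the amount of spacer and 18S RNA were not measured in these cells, and their part in this result was not tested.

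**Figure D2:**
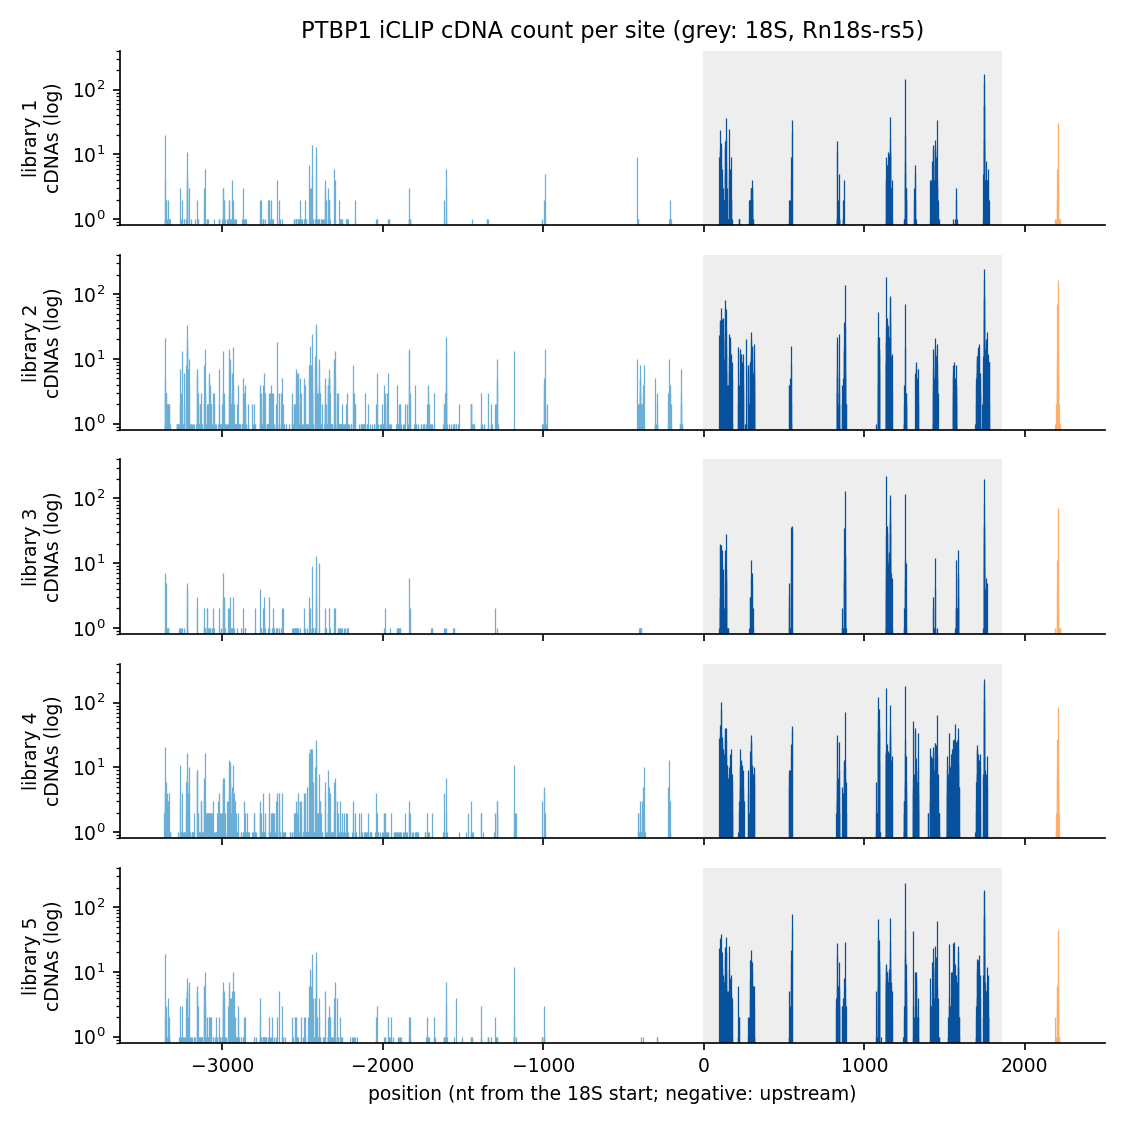
cDNA count per site (y axis, log scale) along the rRNA window (x axis, nt from the 18S start, negative upstream) for iCLIP libraries 1 to 5 at positions of the pooled list, with 18S on grey. In each library, tall clusters of sites stand on 18S and around position 2204, and lower, dense sites fill the first part of the upstream stretch.

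On 18S the sites formed few, dense groups. Its 548 sites fell into 32 unbroken runs of neighbouring positions, against 427 runs for the 1207 upstream sites. Positions are counted from 1 at the first base of Rn18s-rs5 from here on, and negative numbers lie upstream of it. The 3 runs with the most cDNAs were positions 97 to 177 with 3610 cDNAs, positions 1738 to 1776 with 3308 cDNAs and positions 1132 to 1171 with 3230 cDNAs. These runs held 14.2%, 13.0% and 12.7% of the window's cDNAs. The first of them is the longest run of the window, 81 nt near the 5′ end of 18S, and it took 16.3%, 17.1%, 9.07%, 14.6% and 13.6% of the window's cDNAs in libraries 1 to 5. No single site stands out in it, as none of its positions is among the 10 highest. Positions 1534 to 1589 formed the fourth run, with 1232 cDNAs, and took 0.425%, 1.29%, 2.25%, 7.08% and 6.48% in libraries 1 to 5. In the lists, libraries 4 and 5, which carry different run labels, were high there and the other libraries low, without overlap. The listed counts of 9, 92, 58, 560 and 293 in libraries 1 to 5 fall short of the pooled 1232. Which libraries hold the remaining cDNAs is not known, so those listed low may be higher than shown. Between the runs of 18S lay long empty stretches, the longest of them 272 nt between positions 548 and 821.

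A small part of the sites held much of the signal. The 10 highest sites, 0.562% of the 1779, held 20.3% of the pooled window cDNAs, and the 100 highest held 53.2%. Of the 10, 9 lay on 18S and 1 downstream of it.

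The highest sites of the window stood close to the 3′ end of 18S. Position 1746 (chromosome 17, 39848099) had 1024 cDNAs and was the highest of all 244659 pooled sites. It had 173, 247, 202, 232 and 170 cDNAs in libraries 1 to 5. Its neighbour at position 1745 had 754 cDNAs in the pooled list and 129, 166, 83, 193 and 183 in the 5 libraries. All libraries therefore had high counts at these positions, with libraries 2 and 4 highest at the first and libraries 4 and 5 at the second. These counts are not scaled to depth. By share of a library's window cDNAs, library 1 was highest at both, with 8.2% and 6.1%. Lowest by share were library 4 at the first, with 2.9%, and library 2 at the second, with 2.3%. Positions 1744 and 1747 followed with 365 and 275 pooled cDNAs, and each was present in 5 of 5 lists. The run that contains them held 24.3%, 12.3%, 16%, 9.73% and 14.4% of the window's cDNAs in libraries 1 to 5.

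Position 1254 (chromosome 17, 39847607) was the third highest of the window, with 748 pooled cDNAs. It had 147, 70, 118, 179 and 234 cDNAs in libraries 1 to 5. Library 5 had the highest count there and library 2 the lowest. By share of a library's window cDNAs, library 1 was highest, with 6.93%, and library 2 lowest, with 0.98%. The highest site downstream of 18S was position 2204 (chromosome 17, 39848557), with 395 pooled cDNAs and 31, 162, 70, 87 and 45 in libraries 1 to 5. Its count was highest in library 2, and its share of a library's window cDNAs was highest in library 3, at 2.7% against 2.3% in library 2. Together with its neighbours from position 2199 to 2210 it held 665 of the 695 pooled cDNAs downstream of 18S.

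Other high sites varied strongly from library to library. Position 1138 (chromosome 17, 39847491) had 591 pooled cDNAs, made up of 4, 182, 223, 169 and 13 cDNAs in libraries 1 to 5. Libraries 2, 3 and 4 were high and libraries 1 and 5, which share a run label, were low, without overlap. Position 877 (chromosome 17, 39847230) had 390 pooled cDNAs, with 140, 129, 73 and 29 in libraries 2 to 5 and no site in the list of library 1. Since the pooled count exceeds the sum over the lists by 19, library 1 had at most 19 cDNAs there. Position 1158 had 9, 92, 95, 29 and 11 cDNAs in libraries 1 to 5. Position 1159 had 38, 86, 111, 91 and 67, so libraries 1 and 5 had the lowest counts at both. Counts are not scaled to depth, and shares of a library's window cDNAs gave another order. At position 1158 the shares were 0.42%, 1.29%, 3.68%, 0.37% and 0.24% in libraries 1 to 5. At position 1159 they were 1.79%, 1.20%, 4.30%, 1.15% and 1.48%, with library 4 lowest. The run of positions 1132 to 1171 that holds 3 of these sites took 9.62%, 13.9%, 33.4%, 10.4% and 7.7% of the window's cDNAs in libraries 1 to 5. Whether the run label has a part in this was not tested, as 2 libraries against 3 are too few.

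Library 3, the smallest, and library 1 lacked whole runs that the others held. Positions 1081 to 1093 had 982 pooled cDNAs, with 185, 506 and 241 in libraries 2, 4 and 5 and none listed in libraries 1 and 3. Positions 1691 to 1721 had 612 pooled cDNAs and were likewise listed in libraries 2, 4 and 5 only, with 182, 225 and 145. These 2 libraries had the fewest sites of all, 17573 in library 1 and 6211 in library 3, and a list holds only sites that passed the false discovery rate, so a missing site is not a count of 0.

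**Figure D3:**
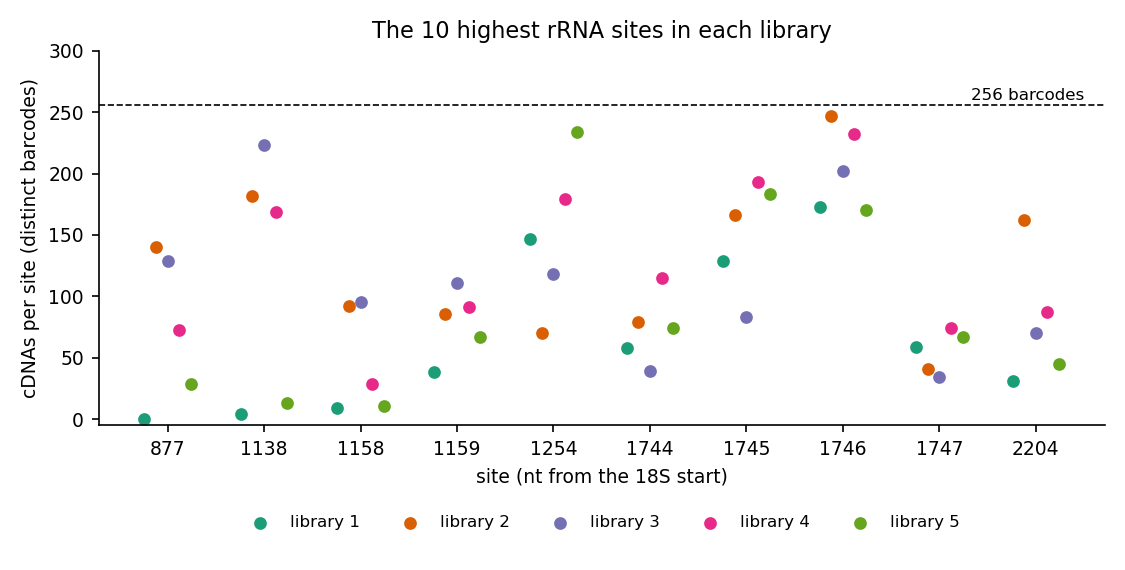
cDNAs per site (y axis, distinct barcodes) at the 10 highest window sites of the pooled list (x axis, nt from the 18S start), 1 point per library, with a dashed line at 256, the number of distinct barcodes. Points at 1746 lie close below the line in libraries 2 and 4, while those at 1138 range from 4 to 223.

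The highest counts were near the ceiling of the assay. A cDNA is counted by its random barcode of 4 bases, which allows 256 distinct barcodes at a position in 1 library. The highest window site reached 173, 247, 223, 232 and 234 cDNAs in libraries 1 to 5, or 67.6%, 96.5%, 87.1%, 90.6% and 91.4% of the barcodes. Under equal use of the barcodes, 247 distinct ones are what 857 molecules would leave on average. More than 128 barcodes were used at 3 to 5 window sites per library and at 0 to 7 other sites. Converting all counts in this way, a step chosen after the values were seen, raised the mean share of the window to 13.9% ± 6.21 (SD, n = 5) and that of library 3 to 23.6%. If each distinct barcode stands for a molecule, the deposited counts at the highest rRNA sites are lower bounds on the number of molecules. Errors in barcodes were not examined.

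Upstream of 18S the signal was lower, broad and weighted to the 5′ side. The first 1000 nt held 3257 of the 5085 upstream cDNAs (64.1%), and the 1000 nt next to 18S held 567 (11.2%). In libraries 1 to 5 the first 1000 nt held 71.7%, 62.0%, 79.1%, 73.8% and 77.7% of the upstream cDNAs at pooled positions, and the last 1000 nt held 7.2%, 9.83%, 2.03%, 5.89% and 1.3%. The first part was above the last in every library. The longest stretch without a site, 281 nt, lay between positions -748 and -466.

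The highest upstream site was position -2418 (chromosome 17, 39843936), with 95 pooled cDNAs and 13, 30, 13, 19 and 20 in libraries 1 to 5. Position -2419 beside it had 91, and both belonged to a run from position -2423 to -2412 with 294 cDNAs. A second run nearby, from position -2460 to -2434, held 433 cDNAs, the most of any upstream run. Position -3358, 4 nt into the stretch with sites, had 88 pooled cDNAs and 20, 21, 7, 21 and 19 in libraries 1 to 5. Each of these upstream sites was found in 5 of 5 lists. Their counts differed less between libraries than those of positions 877 and 1138 of 18S, which varied strongly, but not less than at every 18S site. As a share of a library's window cDNAs, position -3358 ran from 0.27% to 0.94%, and position 1746 of 18S from 2.93% to 8.16%.

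Sites on rRNA were found again in more replicate lists than sites elsewhere. Of the 1779 window sites, 176 (9.89%, exact 95% interval 8.54% to 11.4%) had a site at the same position in all 5 lists, against 0.23% of the other sites and 0.3% of all sites. At least 3 lists held 655 window sites (36.8%), against 1.8% of the other sites and 2.06% of all sites. No list held 10.5% of the window sites and 62.5% of the others. On 18S alone 21.5% of the sites were in all 5 lists, and upstream of it 4.23%. The pooled list was made from the same 5 libraries, so this support is a description and was given no test. The lists of libraries 1 to 5 contained 472, 1103, 364, 1068 and 802 of the 1779 pooled sites, and the 176 sites found everywhere were bounded by library 3, without which 16.8% were in all lists that remained.

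Much of this support went with height. Among sites with 1 pooled cDNA, window sites were in 0.761 lists on average and other sites in 0.317. Among sites with 5 to 9 cDNAs the means were 2.79 lists on the window and 1.91 elsewhere. At 10 to 19 cDNAs they were close, at 3.33 and 3.28 lists. From 20 to 49 cDNAs the order turned, with 3.92 lists on the window and 4.15 elsewhere, and at 100 or more cDNAs the means were 4.59 and 4.72. The window thus had clearly more support than other sites of like height below 10 pooled cDNAs, and slightly less from 20 on. At a given height, upstream sites had more support than 18S sites, for example 3.84 against 3.05 lists at 10 to 19 cDNAs.

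**Figure D4:**
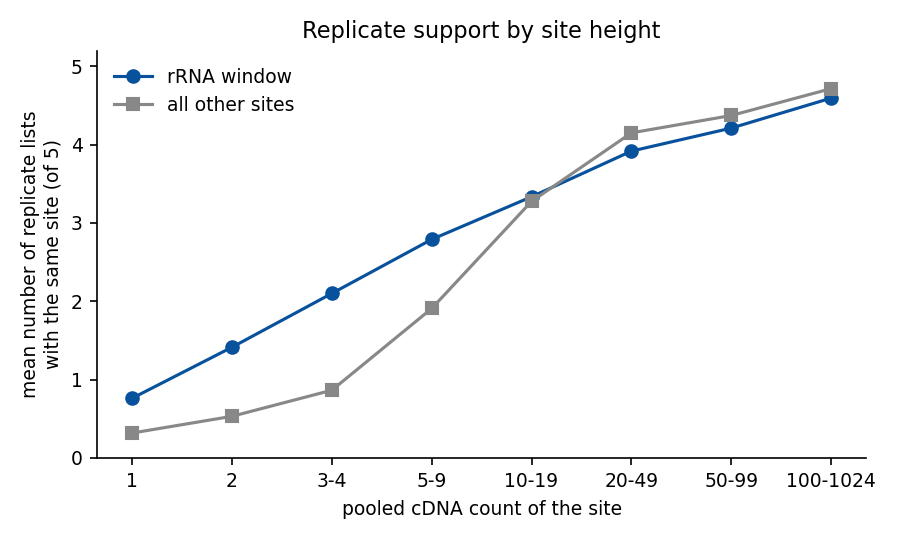
Mean number of the 5 replicate lists that hold a site at the same position and strand (y axis) by the pooled cDNA count of the site (x axis), for the rRNA window and all other sites. Window sites lie above the others up to 9 cDNAs (2.79 against 1.91 lists at 5 to 9) and slightly below them from 20 cDNAs on.

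Libraries resembled each other along the window to a moderate degree. Over the 1779 pooled positions, Pearson's r of log2(cDNAs + 1) between 2 libraries ran from 0.539 (libraries 3 and 4) to 0.782 (libraries 4 and 5), as a description across positions of libraries that share the pooled list. On 18S it ran from 0.515 to 0.752, and upstream from 0.375 to 0.567. Libraries 4 and 5, the most alike over the window, carried different run labels, and libraries 3 and 4, the least alike, carried the same one. The other pair with a shared label, libraries 1 and 5, stood at 0.643 over the window. Whether the run label or the size of a list has a part in these values was not tested.

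The mRNA libraries gave a second readout of the repeat, in germinal centre B cells of cKO and control mice. The labels held for the targeted gene: Ptbp1 was at 82.5 to 121 CPM in LZ cKO and 353 to 420 CPM in LZ control libraries, and at 92.1 to 114 CPM in DZ cKO and 416 to 486 CPM in DZ control libraries. The B cell gene Ms4a1 and the germinal centre gene Bcl6 were expressed in all 16 libraries, with lowest values of 2059 and 187 CPM. Of the genes that RefSeq places in the window, Rn18s-rs5 (as Gm42418) and AY036118 had 0 counts in all 16 libraries. The Ensembl gene models Gm26917 and CT010467.1 are known to lie on the same repeat. Their coordinates are not in the annotation used here, and they were named after their values were seen. How reads that fall on several of these models were counted is not stated. The split between the models, and how much of the repeat's signal was counted at all, are therefore uncertain. The libraries were primed on poly(A), so these counts are not a measure of the rRNA level of the cells.

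Neither gene model passed the test in either zone, where 1.08% (light zone) and 0.627% (dark zone) of the 15789 genes tested were called at an adjusted p of 0.05. Gm26917 had 2580, 3444, 2057 and 1402 CPM in LZ cKO libraries 1 to 4 and 4859, 3588, 2687 and 1120 CPM in LZ control libraries 1 to 4. The groups overlapped, and the log2 fold change was -0.37 ± 0.467 (SE, edgeR adjusted p = 0.823). In the dark zone it had 4813, 2430, 1917 and 1526 CPM in cKO and 4004, 2753, 1408 and 1213 CPM in control libraries, a log2 fold change of 0.19 ± 0.466 (edgeR adjusted p = 0.939), and it was higher in cKO on 3 of 4 sort days.

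CT010467.1 was lower in the cKO library on all 4 sort days of both zones, but by less than the spread between days. It had 2323, 1856, 1135 and 724 CPM in LZ cKO libraries 1 to 4 and 2451, 2014, 1699 and 838 CPM in LZ control libraries, a log2 fold change of -0.21 ± 0.377 (edgeR adjusted p = 0.884). In the dark zone it had 1933, 1662, 1295 and 763 CPM in cKO and 2353, 1750, 1646 and 1109 CPM in control libraries, a log2 fold change of -0.28 ± 0.377 (edgeR adjusted p = 0.869). Blocking on sort day gave -0.24 ± 0.106 for LZ (edgeR adjusted p = 0.227). For DZ the blocked log2 fold change was -0.32 ± 0.106, again without passing (edgeR adjusted p = 0.126). In each group of 4, the library of sort day 1 was highest and that of sort day 4 lowest for CT010467.1. Sort days 1 and 2 were from males and days 3 and 4 from females, so day and sex cannot be told apart here.

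**Figure D5:**
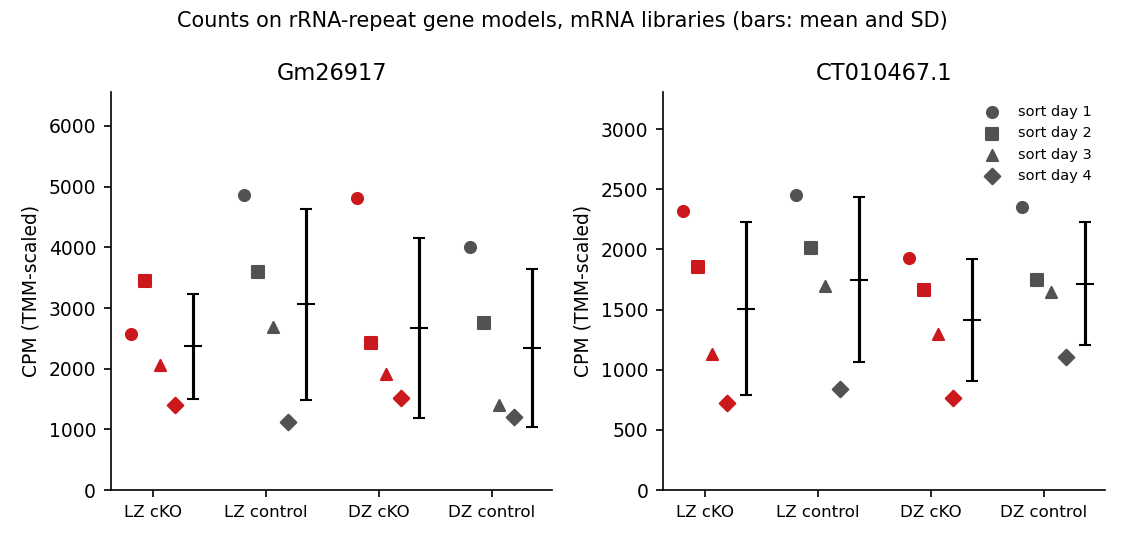
Level (y axis, TMM-scaled CPM) of the rRNA-repeat gene models Gm26917 and CT010467.1 in the 16 mRNA libraries, 1 point per library with the marker giving the sort day, and the mean ± SD beside each group (x axis). Groups overlap for both models, and CT010467.1 runs from 2323 CPM on sort day 1 to 724 CPM on sort day 4 within LZ cKO.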

How the data were processed

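The deposited score of each iCLIP site is a signed cDNA count, not scaled to depth; its size was used as the count and its sign as the strand. Per the file headers, sites were called on mm10 with Ensembl 75 with 100 permutations, a flank of 15 nt and a false discovery rate below 0.05, in 5 replicate lists and 1 list of summed replicates. The submitters' processing notes name Bowtie for iCLIP, and Trim Galore 0.4.2, HISAT2 and HTSeq on GRCm38 for mRNA. How reads of repeats were placed is not stated in any label or header. A site was shared when position and strand were equal.

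The deposited mRNA values are raw counts per Ensembl gene. All 16 libraries (26823882 to 34240096 gene counts) entered 1 edgeR 4.0.16 fit in R 4.3.3 (filterByExpr with minimum count 10, TMM, robust quasi-likelihood, BH over 15789 genes). Summary lines naming no gene (41.4% to 49.8% of entries) were left out. Replicates of a group differed beyond sampling noise (chi-square per degree of freedom 23.8 to 183). The replicate number is the sort day per the labels. Deviations from the group mean correlated at 0.0944 to 0.39 between libraries of 1 day. The scripts were tested on simulated data.

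The named sites were the 10 highest of the window and the highest of each segment; runs and upstream sites were added after their values were seen. The window and this rule were chosen with earlier results of these data known. Sequences around the sites were not analysed here.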

Additional observations from a re-analysis of the deposited data

Results flagged for a closer look

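Of 38 values looked at for 1 library standing apart, 4 did so, where chance gives about 1 in 20 for independent values. These values are not independent, as some sites lie in runs that were also looked at, so 4 of 38 cannot be weighed against that rate. In all 4 the gap to the next library was more than 0.71 of the whole range over the 5 iCLIP libraries. Library 3 was high at 3 of them: position 1138 (8.64% of its window cDNAs), position 1159 (4.3%) and the run of positions 1132 to 1171 that holds both (33.4%). Library 1 was high for the stretch at Eif4g2 on chromosome 7, with 11.1% of its cDNAs.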

How the results depend on the processing

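The share of cDNAs on the window (12.2%) moved to 29.8% among sites of at least 5 cDNAs and to 22.4% on the plus strand alone, where the denominator loses the minus-strand sites, and ran from 10.3% to 13.5% with 1 library left out. The share of window sites in all 5 lists (9.89%) moved to 21.5% on Rn18s-rs5 alone, to 4.59% with at least 5 cDNAs in the pooled and every replicate list, and to 42.9% and 58.5% with replicate sites within 5 and 15 nt, when the other sites reached 1.32% and 1.77%. With 1 library left out it ran from 10.0% to 16.8%. The log2 height ratio (1.83) kept its sign in all 11 alternatives, from 0.49 (at least 5 cDNAs) to 2.60 (Rn18s-rs5 only), and ran from 1.77 to 1.94 with 1 library left out (exact permutation p = 0.125, the smallest that 4 libraries allow). The log2 ratios of 18S over upstream, checked after the values were seen, ran with 1 library left out from 2.15 to 2.39 for height and from 2.86 to 3.21 for density. Among sites of at least 5 cDNAs they were 1.18 and 4.42. Without the mitochondrial chromosome and unplaced sequences the share, the height ratio and the support moved by less than their error. Both gene models stayed above an adjusted p of 0.05 in all 13 alternatives in each zone, DESeq2 included, with a lowest edgeR adjusted p of 0.126. With 1 library left out, the log2 fold change of Gm26917 ran from -0.64 to -0.06 in the light and from -0.26 to 0.57 in the dark zone, and that of CT010467.1 from -0.50 to 0.018 and from -0.47 to -0.08. Signs turned without LZ cKO library 4 for CT010467.1, and without DZ cKO library 1 or DZ control library 4 (-0.028) for Gm26917. The cause was not tested. With the replicate block the log2 fold changes were -0.25 and 0.22 for Gm26917 and -0.24 and -0.32 for CT010467.1, and the block changed no call. Sequence alternatives were not run, as no genome was used here. Site counts near 256 barcodes and lists without sites under the threshold limit what the highest and lowest sites can show.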
